A study of Mus musculus with 4 samples.

Results

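Transcript levels were followed for 7 genes of the early embryo, Dppa2, Dppa3, Dppa4, Dppa5a, Tcl1, Khdc3 and Ooep. The course ran from mouse embryonic stem (ES) cells to primed epiblast-like aggregates (ELA), with and without 2 inhibitors of chromatin enzymes. The genes were taken by name, at every probe that carried the name, which gave 10 of 55122 probes and 7 of 36039 genes. Khdc3 stood on the array under its clone name 2410004A20Rik. The genes had been picked for unequal responses to the inhibitors, so they were chosen by their levels on the ELA and inhibitor arrays, which are given as a description. The 4 samples came from the E14Tg2A line (strain 129/Ola), with 1 array per group and RNA of 3 experiments pooled on each, so there were no replicates and no test was possible. ES cells (day 0) grew untreated on gelatin with serum and LIF. ELA were the same cells aggregated for 2 days in minimal medium without serum or LIF, a transient culture and not a stable line. AZA were ELA formed with 50 nM 5-azacytidine, described in the labels as an inhibitor of de novo methyltransferases, and CHQ were ELA formed with 100 μM 5-carboxy-8-hydroxyquinoline, described there as an inhibitor of lysine demethylases. The inhibitors were thus given at different doses.

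These genes are best known from the egg and the early embryo. Khdc3 and Ooep encode KH-domain proteins of the subcortical maternal complex, which the egg stores and the cleaving embryo needs, and Dppa3 encodes a maternal factor that protects methylated DNA of the zygote from demethylation. Dppa2 and Dppa4 encode a pair of SAP-domain proteins that bind DNA together, Dppa5a an RNA-binding KH-domain protein, and Tcl1 a co-activator of the kinase AKT. All of them are markers of undifferentiated ES cells, early germ cells or the oocyte.

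The probes that carry the responses are shown first, as the initial 30 of the 60 bases of each, because most of these genes were read by a single spot and both Dppa2 probes are needed to see where they disagreed. Positions are those of the deposited files (mm9). The Tcl1 probe lay at chr12:106454973-106455032 (minus strand), the Khdc3 probe at chr9:72952157-72952216 (plus), the Dppa3 probe at chr6:122580207-122580266 (plus), the brighter Dppa2 probe at chr16:48319381-48319440 (plus) and the dimmer one at chr16:48317579-48318787 (plus). The last of these spans 1209 bases of the genome, so it joins separate segments.
Tcl1: gtgtgggattttatgtggttctattttaga
Khdc3: gaagaacagagtagagctgtttttgtttcc
Dppa3: cccagggctgaggaataaagtaaatagaat
Dppa2, brighter probe: accacttagccagtactgatgtatgtttga
Dppa2, dimmer probe: tcctgaatgtgttcagagcaacaagaagat

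Since AZA acts on enzymes that methylate cytosine in CG pairs, the CG pairs of the available promoters are of interest, and they are printed in capitals in the 250 bases before the start of Tcl1, Khdc3 and Ooep (RefSeq, GRCm38.p6; 3 of the 7 genes matched). Khdc3 (chr9:73102148-73102397, plus strand) had 0 CG pairs, as did 7.9% of 32851 promoters of that length. Tcl1 (chr12:105222738-105222987, minus strand) had 7, and 46.3% of promoters had as many or more. Ooep (chr9:78378589-78378838, minus strand) had 11, and 35.6% had as many or more. The median promoter had 6. The promoters of Khdc3 and Tcl1 thus stood at 0 and slightly above the median. These arrays did not measure methylation, and a link between CG pairs and the response to AZA was not tested.
Tcl1: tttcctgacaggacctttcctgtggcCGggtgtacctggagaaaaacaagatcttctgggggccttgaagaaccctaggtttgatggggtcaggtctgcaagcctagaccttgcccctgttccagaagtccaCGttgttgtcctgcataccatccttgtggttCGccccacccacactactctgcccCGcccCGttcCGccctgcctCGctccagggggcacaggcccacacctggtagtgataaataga
Khdc3: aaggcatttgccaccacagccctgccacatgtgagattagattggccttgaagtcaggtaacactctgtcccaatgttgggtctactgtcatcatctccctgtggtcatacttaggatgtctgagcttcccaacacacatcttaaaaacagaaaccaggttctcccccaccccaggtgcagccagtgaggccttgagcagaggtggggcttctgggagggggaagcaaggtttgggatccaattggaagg
Ooep: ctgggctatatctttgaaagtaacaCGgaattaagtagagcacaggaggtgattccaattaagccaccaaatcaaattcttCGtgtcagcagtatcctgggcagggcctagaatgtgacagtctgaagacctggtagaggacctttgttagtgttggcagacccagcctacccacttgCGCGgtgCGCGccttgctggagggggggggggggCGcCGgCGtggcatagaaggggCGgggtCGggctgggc
On both strands, the motif AAGGTCA, bound by orphan nuclear receptors such as Esrrb, was in none of these windows and in 4.1% of all promoters. The octamer ATGCAAAT was in none of them and in 1.6% of all promoters. The GC box GGGCGG occurred 2 times in Tcl1, 1 time in Ooep and 0 times in Khdc3, and 32.7% of all promoters hold it. A match or its absence describes these windows only.

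The arrays held 55681 gene probes each. Between 55.1% and 69.2% of gene spots were well above background, 0 were saturated, and the local background had a median of 59 (ES), 77 (ELA), 14 (AZA) and 13 (CHQ) intensity units. ES and ELA shared the first slide and AZA and CHQ the second, so in every difference between an inhibitor array and ELA or ES the slide and the treatment cannot be told apart, and both differences from ELA use the same ELA array. ELA minus ES and CHQ minus AZA each lie within a slide. Repeated spots of a probe varied with an SD of 0.15 (log2, 432 probes), which gives 0.21 for a difference of 2 arrays. That spread covers spotting and reading only, and each of the 10 probes had a single spot. Pou5f1, a general marker of pluripotency, had log2 intensities of 14.95 in ES and 14.46 in ELA, against 14.05 with AZA and 13.56 with CHQ. It was the only 1 of 4 pluripotent markers below ELA with AZA, where Nanog and Zfp42 rose and Sox2 had 0.99, short of the size rule. With CHQ, Zfp42 rose by 3.05, while Sox2 and Nanog stood 0.64 and 0.01 above ELA at their brightest probes. The priming marker Fgf5 had 11.61, 14.47, 11.94 and 13.33, while the other priming markers, Otx2 and Eomes, did not pass the rule in any comparison. In such bulk samples fewer cells of a type and less RNA per cell cannot be told apart.

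A gene could be called when the mean log2 intensity of both arrays was at least 7.5 and at least 1 of them had the probe marked as well above background, and it was called changed when the log2 difference was at least 1 in size. "Rose" and "fell" are used below only of changes that passed this rule. The brightest probe stands for a gene with several. All 7 genes were well above background on all 4 arrays, and 6 could be called. Ooep lay below 7.5 in each comparison.

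From ES to ELA, all 6 genes that could be called fell (median −1.83, range −4.14 to −1.02), where 10.0% of 18947 genes changed in either direction and the median gene was at −0.02. With AZA, 3 of the 6 rose from ELA (Khdc3, Tcl1 and Dppa2) and none fell, where 25.6% of 19159 genes changed. With CHQ, 3 rose (the same genes as with AZA) and Dppa3 fell, where 26.6% of 19163 genes changed. Between the inhibitors, 3 of the 6 were lower with CHQ than with AZA (Tcl1, Dppa3 and Khdc3), where 10.3% of 19196 genes differed. The other 3, Dppa2, Dppa4 and Dppa5a, had CHQ minus AZA values of −0.09, −0.41 and −0.42, so the unequal response for which the genes were picked passed the size rule in only 3 of them. The choice rests on the ELA and inhibitor arrays, and the fall from ES also uses the ELA array. Nothing is therefore read from any of these shares.

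**Figure D1:**
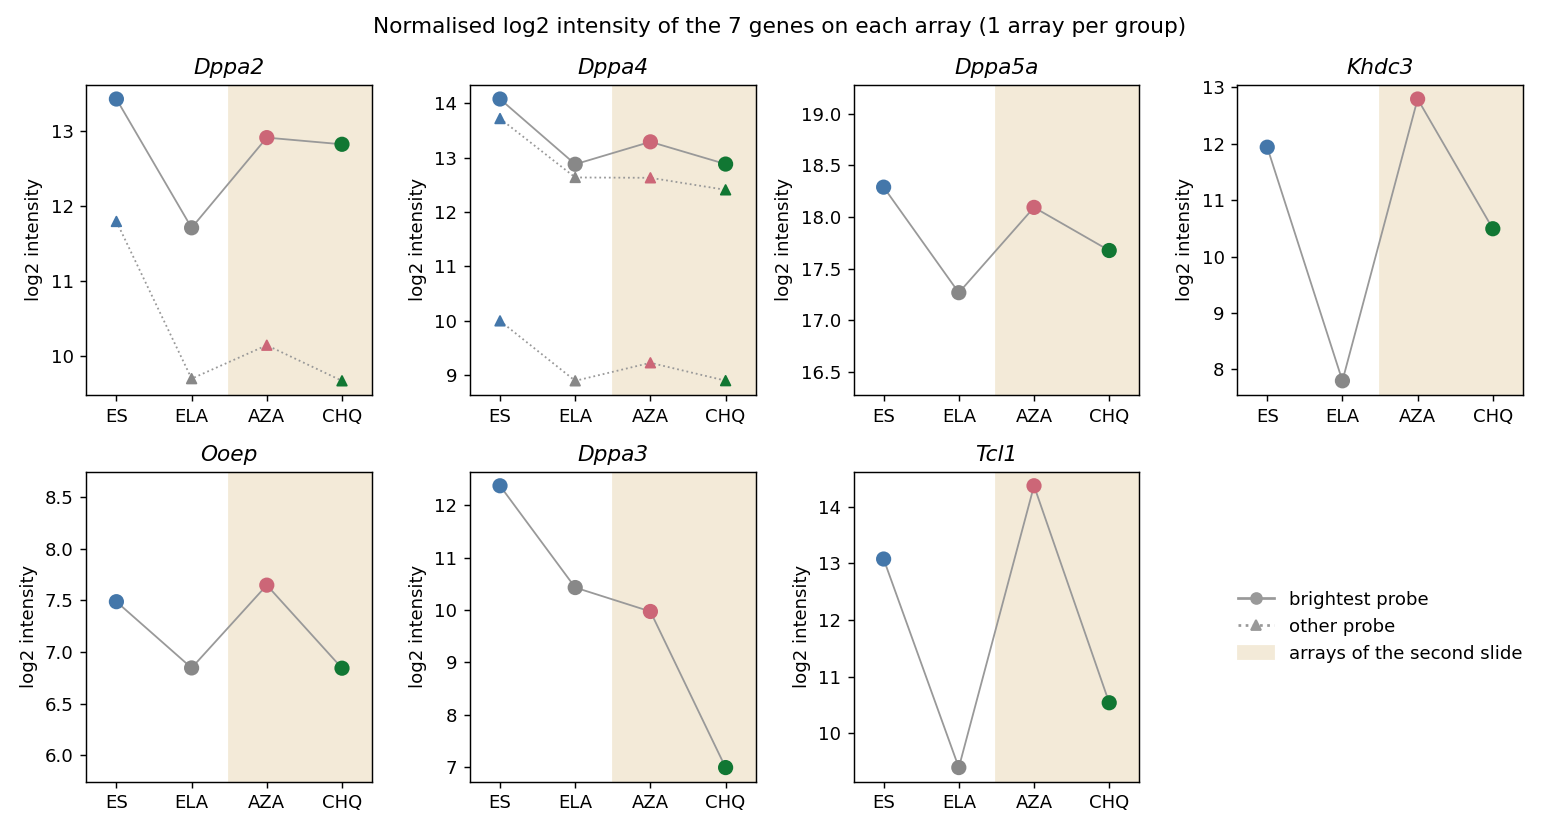
Normalised log2 intensity (y axis, a range of its own in each panel) of the 7 genes on the ES, ELA, AZA and CHQ arrays, 1 array per point; circles are the brightest probe, triangles the other probes, and the shaded arrays lay on the second slide. Tcl1 and Khdc3 dip in ELA and peak with AZA, while Dppa3 steps down to 7.0 with CHQ.

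Tcl1, the AKT co-activator, had the widest gap between the inhibitors of the 7 genes in the main processing, while 75th percentile scaling put Dppa3 first (−4.16 against −3.80). Its log2 intensity was 13.07 in ES and 9.40 in ELA, against 14.37 with AZA and 10.54 with CHQ. The AZA array was the highest, above ES by 1.29, and the ELA array the lowest. The fall from ES to ELA was −3.68 (12.8-fold), the rise with AZA 4.97 (31.3-fold) and the rise with CHQ 1.14 (2.21-fold). CHQ minus AZA was therefore −3.83 (14.2-fold), the second largest fall among the 19196 genes that could be called. Expressed as the part of the ES to ELA difference that was regained, where 0 is ELA and 1 is ES, Tcl1 had 1.35 with AZA and 0.31 with CHQ.

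Khdc3, whose protein belongs to the subcortical maternal complex, followed Tcl1 in the order of the arrays. It had 11.94 in ES and 7.80 in ELA, against 12.80 with AZA and 10.49 with CHQ. The fall of −4.14 (17.7-fold) from ES to ELA was the largest of the 7 genes and the seventh largest of all genes that could be called. Khdc3 rose by 5.00 (31.9-fold) with AZA and by 2.70 (6.48-fold) with CHQ, and CHQ minus AZA was −2.30. The regained parts were 1.21 and 0.65. With AZA, Tcl1 and Khdc3 stood 1.29 and 0.85 above ES, the latter short of the size rule, and spike-in scaling brought the regained parts to 1.095 and 1.024. With CHQ their differences from ES were −2.54 and −1.45.

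Dppa3, the zygotic protector of DNA methylation, shared the fall to ELA and the lower level with CHQ than with AZA, but did not rise from ELA with either inhibitor. Its values were 12.37 in ES and 10.43 in ELA, against 9.97 with AZA and 7.0 with CHQ. The fall to ELA was −1.94 (3.84-fold). With AZA it stood −0.46 from ELA, which did not pass the size rule, and with CHQ it fell by 3.43 (10.8-fold). It was the only 1 of the 7 genes whose value was below ELA with AZA. CHQ minus AZA was −2.98 (7.88-fold), the 17th largest fall. On the scanner scale the spot read 5905 in ES and 1255 in ELA, against 959 with AZA and 80.4 with CHQ, over a local background of 54, 73, 10 and 10. The CHQ value was thus low but marked as well above background, and the constant of 50 added in the background correction shrinks differences at that level.

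Dppa2 and Dppa4, the pair of DNA-binding partners, lie beside each other on chromosome 16 and differed less between the inhibitors. The brighter Dppa2 probe had 13.43 in ES and 11.71 in ELA, against 12.91 with AZA and 12.82 with CHQ. Dppa2 fell by 1.72 to ELA, and rose with AZA (1.20) and CHQ (1.12), so that both inhibitor arrays lay between ELA and ES. The dimmer Dppa2 probe had 11.79, 9.69, 10.14 and 9.66. It fell by 2.10 to ELA, but its AZA and CHQ values were 0.45 and −0.03 from ELA, so the rise of Dppa2 rests on 1 of its 2 probes.

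For Dppa4 the probe that represents the gene had 14.08 in ES and 12.88 in ELA, against 13.29 with AZA and 12.88 with CHQ (chr16:48293216-48293867, plus strand). The fall to ELA was −1.20, and it was −1.08 and −1.10 at the other probes. AZA minus ELA was 0.41 at this probe and −0.01 and 0.33 at the others, and CHQ minus ELA was 0.00, −0.23 and 0.00. No Dppa4 probe therefore passed the size rule with an inhibitor, and the part of the fall regained was 0.34 with AZA, which other processing took as low as 0.134 (spike-in scaling), and 0.00 with CHQ. At all 3 probes CHQ was the lower inhibitor array, by −0.41, −0.22 and −0.33.

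Dppa5a, the RNA-binding KH-domain gene, had 18.29 in ES and 17.27 in ELA, against 18.09 with AZA and 17.68 with CHQ (chr9:78214866-78214925, minus strand). Its fall of −1.02 to ELA was just past the size rule, and the inhibitor arrays stood 0.83 and 0.41 above ELA, short of it. Under 75th percentile and spike-in scaling the AZA value shrank to 0.17 and 0.14. A probe that the array design names Pigp (chr16:94580645-94580704, minus strand) also lists the accession of Dppa5a. It was not counted with Dppa5a, and its values of 17.71, 16.05, 17.41 and 16.88 had the same order of arrays, with differences from ELA of 1.36 with AZA and 0.83 with CHQ.

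Ooep, the partner of Khdc3 in the maternal complex and the neighbour of Dppa5a, was dim, with 7.49 in ES and 6.84 in ELA, against 7.65 with AZA and 6.84 with CHQ (chr9:78224804-78224863, minus strand). AZA was the highest array. CHQ equalled ELA to 2 decimals in the main processing, but differed from it by −0.48 under 75th percentile and by −0.64 under spike-in scaling. The difference from ELA with AZA (0.80) and that between CHQ and AZA (−0.80) had the sign of those of Khdc3 but were not callable at this intensity.

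**Figure D2:**
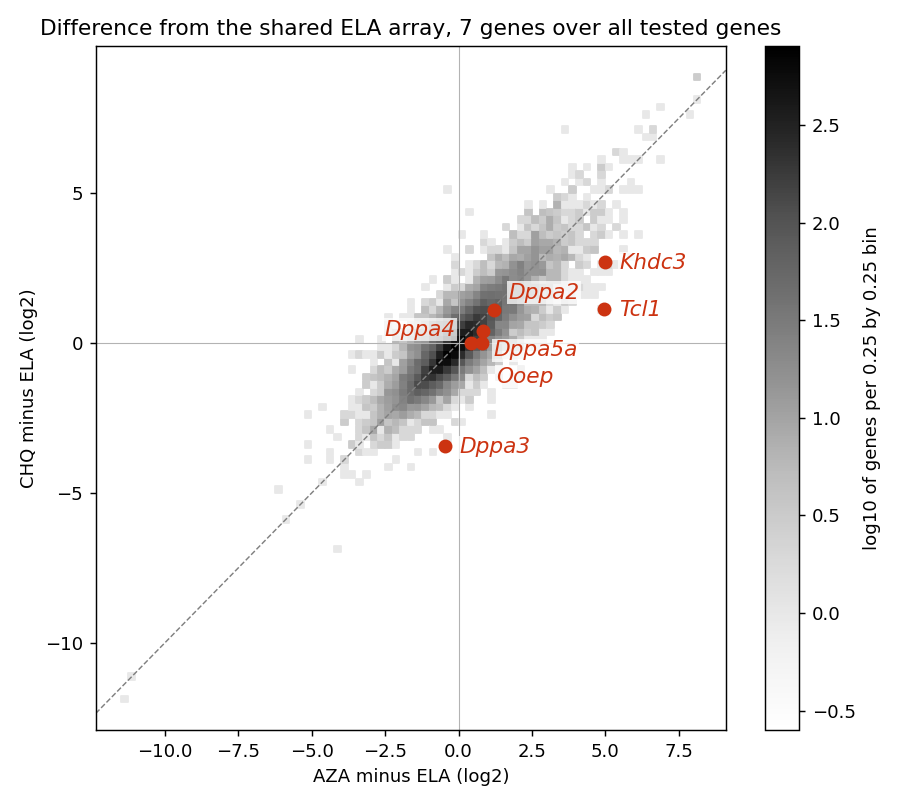
Log2 difference from the ELA array with AZA (x axis) and CHQ (y axis) for the 7 genes (red) over all genes that could be called in both comparisons (grey bins, darker for more genes); the dashed line marks equal differences. Both axes use the same ELA array, which draws points along the line, and Tcl1, Khdc3 and Dppa3 lie below it at the edge of the cloud.

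Set beside each other, the profiles over the 4 arrays formed no single pattern. The distance between profiles (Euclidean, each centred on its mean over the 4 arrays) was smallest for Dppa5a and Ooep (0.38), Dppa4 and Dppa5a (0.52) and Dppa2 and Dppa5a (0.58). Tcl1 and Khdc3 were 1.26 apart, and Dppa3 was at least 3.15 from every other gene. Among 12584 genes with an ordinary symbol, the profiles nearest to Khdc3 were those of the adhesion molecule Jam2 (0.60), the naive-state transcription factor Tfcp2l1 (0.77) and Morc1 (0.83), a germline chromatin gene. Nearest to Tcl1 were Prdm14 (1.08), a regulator of naive pluripotency and germ cells, the secreted phosphoprotein Spp1 (1.08) and the transcription factor Spic (1.25). Among the profiles near that of Dppa3 were those of the calponin Cnn2 (1.14) and Grrp1 (1.20), which were both lowest with CHQ. Dppa2 had Enah (0.11), Ntn1 (0.13) and Pnldc1 (0.14), Dppa4 had Lctl (0.08), Slc6a15 (0.09) and Cdk5rap1 (0.10), Dppa5a had Msh4 (0.08), Sod2 (0.09) and Palld (0.11), and Ooep had Snap29 (0.05), Tmem41b (0.08) and Fpgs (0.10). With 4 arrays such closeness is a description.

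Of the 4 genomic neighbours of Dppa3, Apobec1, Gdf3 and Nanog fell from ES to ELA as it did, but none fell with CHQ at its brightest probe. Apobec1, a cytidine deaminase, had 11.16 in ES and 8.65 in ELA, against 11.75 with AZA and 11.91 with CHQ, so it rose by 3.26 with CHQ where Dppa3 fell. Gdf3, a growth factor of the TGF-β family, had 14.63, 12.62, 14.96 and 14.37 and rose by 2.35 and 1.75. Nanog, a core naive transcription factor, had 15.03, 12.53, 15.39 and 12.54. It rose by 2.86 with AZA and CHQ minus AZA was −2.85, although a dimmer Nanog probe gave −1.55 and 0.53 for these differences and −1.01 for CHQ against ELA. The glucose transporter Slc2a3 had 15.08, 14.51, 16.04 and 15.44. At their brightest probes, 4 of these 5 adjacent genes had both inhibitor arrays at or above ELA and Dppa3 had both below it.

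**Figure D3:**
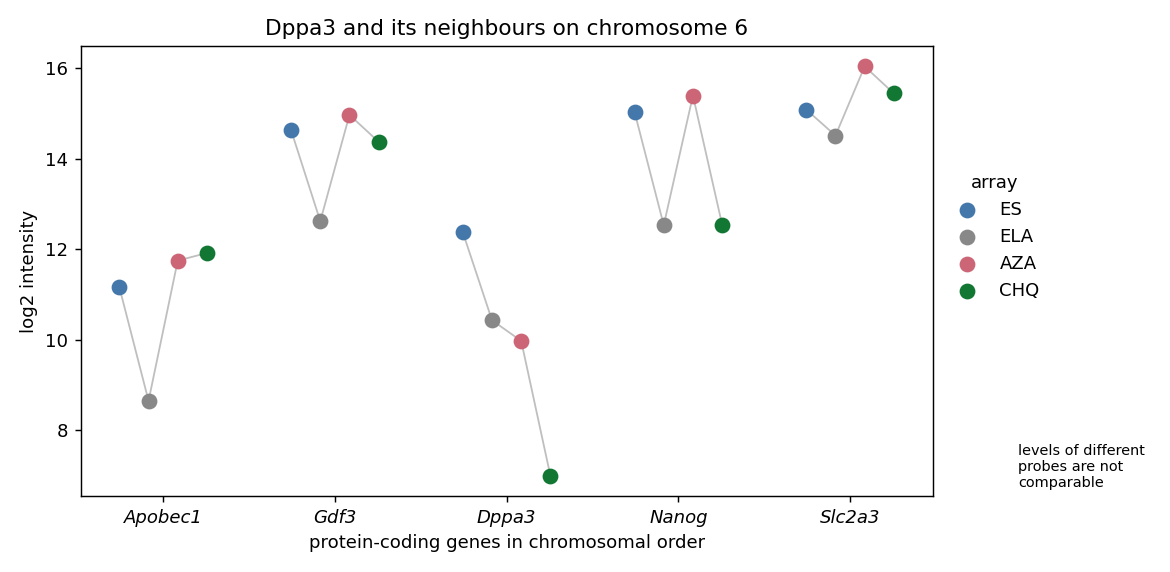
Log2 intensity (y axis) of Dppa3 and the 2 nearest protein-coding genes on each side on chromosome 6, in chromosomal order (x axis), with 1 point per array. Apobec1, Gdf3 and Slc2a3 are higher with CHQ than in ELA, Nanog is level at 12.54 against 12.53, and Dppa3 drops from 10.43 to 7.0.

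At the other loci some neighbours moved with the 7 genes and some did not. Morc1, next to Dppa2, had 13.25, 9.48, 13.77 and 12.58 and rose by 4.29 with AZA and by 3.10 with CHQ, more than Dppa2 or Dppa4. Ddx43, an RNA helicase gene next to Ooep, had 11.60, 9.62, 11.85 and 11.83 and rose by 2.23 with AZA and by 2.21 with CHQ. Beside Tcl1, D430019H16Rik rose by 2.62 from ES to ELA (8.10 to 10.72), and fell by 1.45 with AZA and by 1.98 with CHQ. The Tcl1 paralogues Tcl1b3 and Tcl1b4 stood between 6.07 and 7.08 on all arrays and could not be called. Beside Khdc3, Rab27a, a GTPase gene of vesicle transport, rose by 1.02 with AZA and had 0.49 with CHQ, and Rsl24d1, a gene of ribosome assembly, fell by 1.11 with AZA. Both calls are marginal, since spike-in scaling took Rab27a to 0.91 and the mean over probes took Rsl24d1 to −0.98.

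The other genes of the subcortical maternal complex were read next, from a list of Nlrp5, Tle6, Padi6, Zbed3, Nlrp2 and Nlrp4f. From ES to ELA, 3 of 3 that could be called fell (median −1.28), whereas the authors' value table left 1 that could be called, at −2.73. With AZA, 4 of 4 rose (median 2.58), and with CHQ 3 of 3 rose (median 2.80). Over all genes 10.0%, 25.6% and 26.6% changed in these comparisons, and Padi6 was callable with AZA only through the AZA array. Tle6, a transducin-like corepressor relative, had 11.00 in ES and 8.50 in ELA, against 11.50 with AZA and 10.85 with CHQ. Nlrp4f had 8.83, 7.55, 11.33 and 10.44, and Nlrp5, known as Mater, had 8.55, 7.53, 9.69 and 10.33. Between the inhibitors, where 10.3% of all genes differed, Padi6, a peptidylarginine deiminase of the egg, was the 1 of 4 that did, by −1.08, while Nlrp5 stood 0.63 higher with CHQ. The gap between AZA and CHQ that Khdc3 showed was thus past the size rule in Padi6 and not in Tle6, Nlrp4f or Nlrp5. Padi6 was not well above background in ELA. Zbed3 was too dim to be called and Nlrp2 was not well above background on any array.

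**Figure D4:**
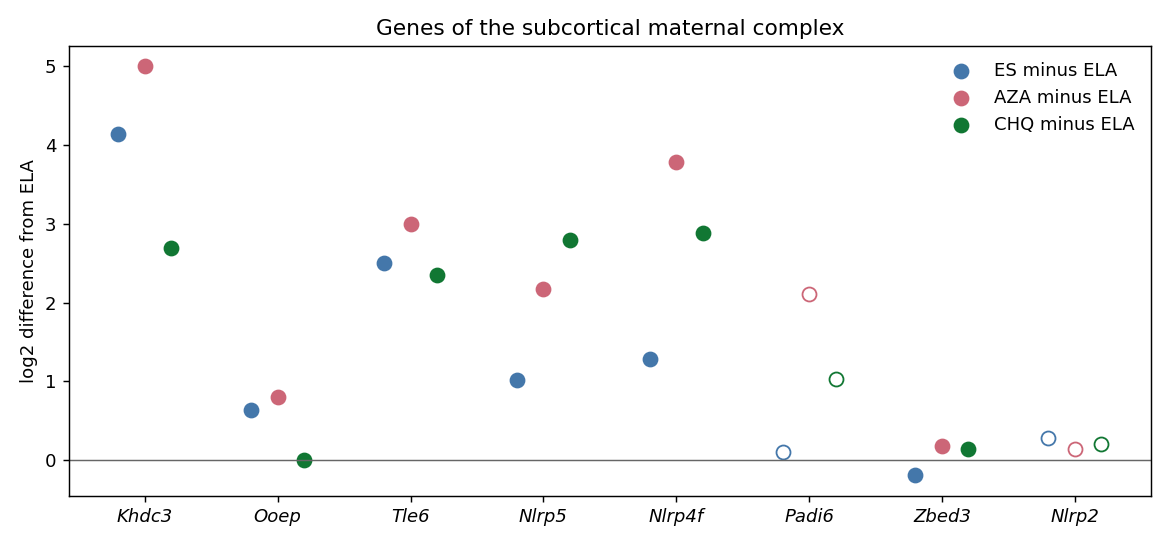
Log2 difference from the ELA array (y axis) of genes of the subcortical maternal complex (x axis) for ES, AZA and CHQ; open circles mark differences in which 1 or both arrays were not well above background. Khdc3, Tle6, Nlrp5 and Nlrp4f lie above ELA on all 3 arrays, with Khdc3 at 5.00 with AZA, and Ooep, Zbed3 and Nlrp2 stay within 1 of it.

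Most of 27 other maternal-effect and oocyte genes were too dim to be called. Of the 25 on the array, 10 could be called from ES to ELA and 3 fell (Zp3, Nlrp9b and Nlrp9c). Nlrp9b was not well above background in ELA and was callable in that comparison only through the ES array. With AZA 2 of 8 rose (Nlrp9c and Zp3), and with CHQ 2 of 7 rose (Nlrp9c and Sohlh1). These counts stand beside 10.0%, 25.6% and 26.6% over all genes, so those with the inhibitors were near the background, and with the mean over probes 1 of 9 fell from ES to ELA, against 9.28% of all genes. The medians of −0.19, 0.33 and 0.38 stood against −0.02, −0.07 and −0.09 for all genes. Zp3, a glycoprotein gene of the egg coat, was, like Tcl1, high in ES and with AZA, with 11.12 in ES and 8.70 in ELA, against 10.46 with AZA and 7.96 with CHQ, and CHQ minus AZA was −2.50. Sohlh1, a transcription factor gene of early germ cells, went the other way, with 7.41, 7.90, 7.56 and 9.33. Between the inhibitors, 3 of 10 differed (10.3% of all genes did), Zp3 and Gdf9 lower and Sohlh1 higher with CHQ. The oocyte genes Bmp15, Btg4 and Zp2 were not well above background on any array.

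Relatives of the 7 genes were mostly dim here. Of the 6 members of the Tcl1 family, only Mtcp1 could be called, with 8.64, 8.29, 7.98 and 7.95, and it did not change. None of Khdc1a, Khdc1b, Khdc1c and Dppa1 could be called. The AKT kinase genes Akt1 and Akt2 did not pass the rule in any of the 4 comparisons.

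Enzymes that write and remove DNA methylation, with which Dppa3 is linked, were also read. The list holds partners of these enzymes too, such as Dnmt3l and Prdm14. Of 9 genes, 2 rose and 4 fell from ES to ELA, and 4 rose and 2 fell with each inhibitor, where 10.0%, 25.6% and 26.6% of all genes changed. The methyltransferase genes Dnmt3a and Dnmt3b rose by 1.51 and 1.05 to ELA, which spike-in scaling took below the size rule (0.92 and 0.61), and fell with AZA (−1.01 and −1.71) and with CHQ (−1.21 and −1.05). The Dnmt3a value with AZA was −0.98 under 75th percentile scaling, and the list then had 3 higher and 1 lower with AZA, against 3 and 3 with the mean over probes. Their cofactor gene Dnmt3l went the other way, with 15.96, 13.22, 16.33 and 15.38, and the dioxygenase gene Tet2 had 12.07, 9.05, 11.68 and 11.55. Between the inhibitors 1 of the 9 differed, Prdm14 by −2.38, a share near the 10.3% of all genes, and Prdm14 was not well above background in ELA. Dnmt1 had between 11.81 and 11.93 on all arrays.

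Genes of the 2-cell stage, a group linked to Dppa2 and Dppa4, responded unequally. Zscan4f had 10.30 in ES, 6.17 in ELA, where it was not well above background, 14.34 with AZA and 14.20 with CHQ, while Zfp352 had 13.66, 12.41, 12.84 and 12.63. Of 5 such genes that could be called, 4 rose with AZA and 4 with CHQ (25.6% and 26.6% of all genes changed). However, Zscan4f, Tcstv1 and Tcstv3 were callable only through the inhibitor arrays, and these multicopy families can share signal at a probe. Between the inhibitors 2 of 6 differed (10.3% of all genes did). Tcstv1 and Tcstv3 were higher with CHQ by 1.05 and 1.48, and spike-in scaling took Tcstv1 to 0.945. Of 14 naive pluripotency genes other than the 7, all 14 fell from ES to ELA (10.0% of all genes changed), 13 rose with AZA and 11 with CHQ, and 7 were lower with CHQ than with AZA (median −0.95, where 10.3% of all genes differed). The exception with AZA was Gbx2, which fell by 1.38. Prdm14, also in this list, was not well above background in ELA and entered the counts against ELA only through the other arrays. Of 12 germline genes that could be called with each inhibitor, 7 rose with each, 2 fell with AZA and 1 with CHQ. Over all genes 25.6% and 26.6% changed. Between the inhibitors 2 of 12 were higher and 2 lower with CHQ, where 10.3% of all genes differed. Hormad1 and Slc25a31 were not well above background in ELA and entered the counts with the inhibitors only through the inhibitor arrays. Dazl, Fkbp6 and Sycp1, which rose with each inhibitor, were well above background in ELA. Their ELA values of 7.40, 7.03 and 7.19 were below the mean level that a call requires. They too reached that level against ELA only through the inhibitor arrays.

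Markers of other cell types were set beside these results. Of 6 markers of primitive endoderm, 4 could be called with CHQ and 2 of them rose (26.6% of all genes changed). These were Gata6, to 9.89, and Sox17, to 9.51, from 6.69 and 6.76 in ELA. Neither was well above background in ELA, so both were callable only through the CHQ array. The authors' value table left 0 of the 6 callable with CHQ against ELA. Dab2 fell by 1.34, and Gata4 had 7.45 in ELA and 7.73 with CHQ. Their summed intensity was 745 in ES and 854 in ELA, against 1041 with AZA and 2322 with CHQ, with 3, 2, 6 and 5 of the 6 well above background. The array with the lowest Dppa3 thus also had the highest sum of these markers, and their part in the result was not tested. The 4 trophoblast markers were too dim for a call in ELA minus ES or in either difference from ELA in the main processing (sums 686, 328, 492 and 588). Under 75th percentile and spike-in scaling, 1 of them could be called from ES to ELA, and it fell (−2.77 and −1.82). Of 5 fibroblast markers, Postn and Lum were not well above background on any array, and the sum was 5286, 13360, 7861 and 3155, of which Thy1 had 12.08, 13.58, 12.78 and 11.27. Thy1 rose from ES to ELA, which spike-in scaling took below the size rule (0.89), and fell with CHQ (−2.31) but not with AZA. Col1a2 was likewise highest in ELA and lowest with CHQ, with 8.73, 9.56, 7.69 and 7.57 and falls with both inhibitors. Col1a1 differed from them and was lowest in ELA, with 8.61, 7.71, 9.02 and 8.51 and a rise of 1.30 with AZA.

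**Figure D5:**
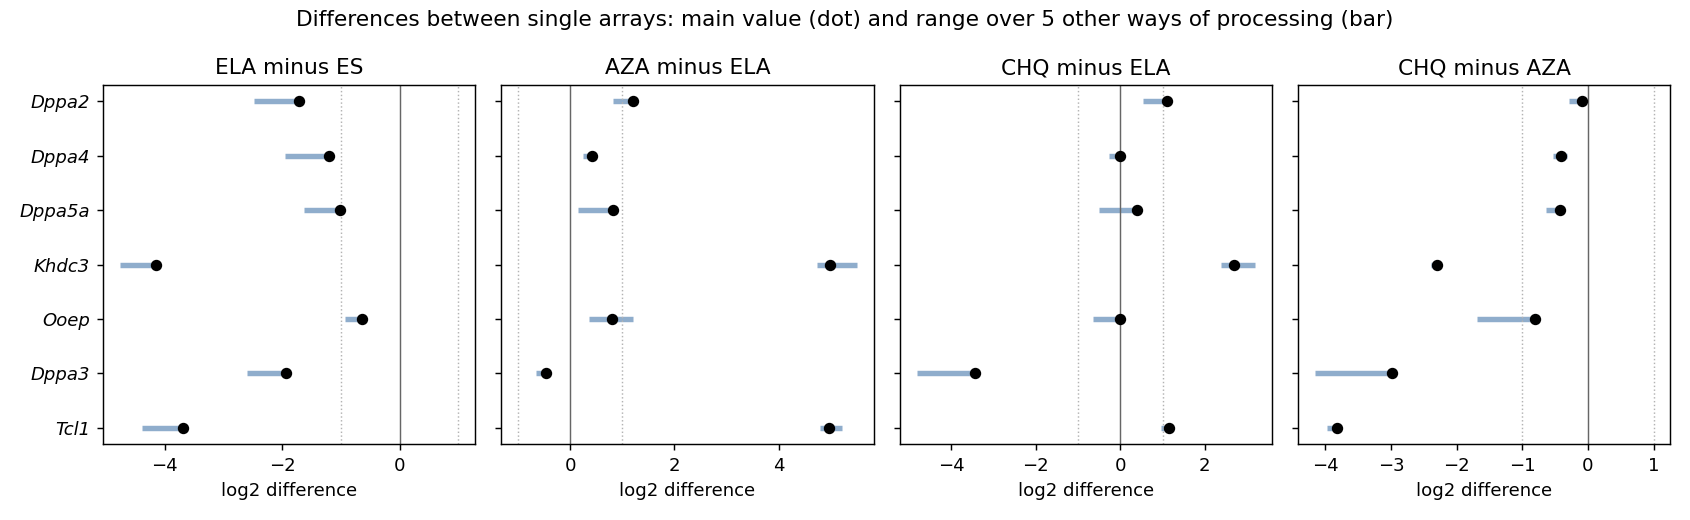
Log2 differences of the 7 genes in the 4 comparisons (x axes), with the main value as a dot and the lowest to highest value over 5 other ways of processing as a bar, which is no error bar; dotted lines mark a size of 1. The CHQ minus AZA values of Tcl1, Khdc3 and Dppa3 stay below −1, and only Dppa4 and Dppa5a with CHQ cross 0 among differences that were callable.

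The order of AZA above CHQ for Tcl1, Khdc3 and Dppa3 held in each of the 5 other ways of processing, with CHQ minus AZA from −3.98 to −3.80, −2.39 to −2.30 and −4.16 to −2.98. The rises with CHQ of Tcl1 and Dppa2 were close to the size rule. Spike-in scaling took them to 0.97 and 0.87, and 75th percentile scaling took Dppa2 to 0.98. The mean over probes took the Dppa2 differences from ELA to 0.83 with AZA and 0.54 with CHQ. For Dppa5a, the CHQ minus ELA value turned from 0.41 to −0.38 under 75th percentile and −0.50 under spike-in scaling, so its direction with CHQ was not settled.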

How the data were processed

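RNA of the 4 pools was labelled with Cy3 and hybridised to single-colour arrays. Per the file headers, the authors read spot intensities with Agilent Feature Extraction 10.7.3.1 (the labels name 9.1), and the deposited scanner intensity values were not normalised between arrays. The deposited table of log2 values, background-corrected and quantile-normalised by the authors with limma, served as an alternative. Here, with limma 3.58.1 in R 4.3.3, mean intensities were corrected by normexp (offset 50) and quantile-normalised over the 4 arrays. Control spots and outlier-flagged spots were left out, and spots of a probe were averaged. Probes were named through RefSeq accessions (GRCm38.p6, names only; 47.8% matched) or else by the array design. With 1 array per group no p-value was computed, and precision is limited by the number of arrays. The 7 genes, the gene lists and the rule for naming genes (list members past the size rule, chromosomal neighbours and nearest profiles) were chosen with earlier results of these data known. Alternatives were 75th percentile and spike-in scaling (7 probes), no background correction, the authors' table, the mean over probes and other filters on dim probes. Some genes that these rules name are not reported here.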

Additional observations from a re-analysis of the deposited data

How the results depend on the processing

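The counts of called genes among the 7 and among the pooled related lists were recomputed under each alternative, and 55 of 56 stayed within 1.5 times the main count. The exception was the number of the 7 genes called with CHQ against ELA, which went from 4 to 2 under spike-in scaling, where Tcl1 and Dppa2 dropped just below the size rule. Spike-in scaling moved the median of all genes to −0.60 (ELA against ES), −0.25 (AZA against ELA), −0.39 (CHQ against ELA) and −0.18 (CHQ against AZA), so directions are relative to the bulk of transcripts. Of the recomputed differences of the 7 genes, 95 moved by less than the spread of repeated spots and 45 by more, and none of the called ones changed sign. Ooep, dim throughout, reached a difference of 1.20 from ELA with AZA and a CHQ minus AZA value of −1.68 under 75th percentile scaling. Dppa5a had −0.99 for ELA minus ES in the authors' table. Within the DNA methylation list, spike-in scaling turned 2 higher and 4 lower in ELA than in ES into 0 higher and 4 lower. In the authors' table, 2 of the 2-cell genes rose with each inhibitor in place of 4, and 4 of the germline genes with CHQ in place of 7, since fewer could be called. Over the mean of its probes Nanog had 0.66 with AZA, short of the rule. Dim spots limit what can be read of Ooep, and of Dppa3 with CHQ. No paired analysis was possible because each group had 1 array and no replicate numbers, and no slide term could be fitted.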
